A study of Mus musculus with 6 samples.

Results

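Semaphorins, plexins and neuropilins were followed across 6 cultured mouse mammary cell lines by RNA sequencing. Members were the protein-coding genes of the deposited table whose name starts with Sema or Plxn, together with Nrp1 and Nrp2, leaving out chromosome 14. The rule found 29 of 23449 genes, made up of 18 semaphorins, 9 plexins and 2 neuropilins. Of these, 27 had enough reads to be tested, among 13698 tested genes in all. The labels name 3 lines 16IC (genotype 16IC/WT, titles 16IC_1984, 16IC_4982 and 16IC_7391) and 3 lines EIC (genotype EIC/WT, titles EIC_4026, EIC_NT and EIC_7559), here called 16IC 1 to 3 and EIC 1 to 3 in that order. By what is known of the study's models, though no sample label says so, 16IC cells make the HER2 splice form without exon 16 and EIC cells make wild-type ErbB2, both switched on by doxycycline. Every line was female, of strain FVB/N, and grown in doxycycline at 10 ug/mL with 10% serum, EGF, insulin and pituitary extract. No line grown without doxycycline was analysed here, and the labels do not give the animal, passage or clone behind a line, so the p-values below describe variation among these 6 samples, which may be technical.

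Semaphorins are guidance cues with a shared extracellular sema domain. Class 3 members are secreted, classes 4, 5 and 6 span the membrane and the class 7 member is held by a lipid anchor. Most act through plexins, whose intracellular part switches off small GTPases of the Ras and Rap family, so that a cell loses adhesion or changes its shape. Neuropilins lack such a part and serve as co-receptors for secreted semaphorins and for ligands of the VEGF family. In breast epithelium and its tumours B plexins are known to associate with the receptor kinases MET and ERBB2.

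Levels are CPM, reads in a megaread of library after TMM scaling, and fold changes are 16IC over EIC. Total counts ranged from 15621563 to 16091846 in 16IC lines and from 16742109 to 17468498 in EIC lines. Erbb2, the gene the models are built on, had 146, 149 and 102 CPM in 16IC 1 to 3, against 87.0, 67.7 and 79.7 CPM in EIC 1 to 3 (adjusted p = 0.108), and whether transgene reads fall on it is not known. The library 16IC 3 stood apart. Across tested genes its Spearman correlation was 0.874 and 0.880 with the other 16IC lines and 0.871 to 0.885 with EIC lines, where 16IC 1 and 16IC 2 reached 0.989 with each other. EIC 2 reached 0.925 and 0.917 with the other EIC lines, against 0.979 between those. The epithelial keratin gene Krt8 was present in all 6 lines, at 580.4 to 2652 CPM in 16IC and 1349 to 1929 CPM in EIC. Epcam, an epithelial adhesion gene, had 1159.6, 1345 and 51.1 CPM in 16IC 1 to 3, against 0.456 to 3.79 CPM in EIC lines, and the basal keratin gene Krt5 was at most at 0.0612 CPM in any line. Mesenchymal and fibroblast markers, 14 of 17 with a row used here, summed to 253 to 4018 CPM in 16IC and 4649 to 9188 CPM in EIC, and 16IC 3 held the highest 16IC values of Vim (2099 CPM) and Fn1 (1511 CPM). Endothelial markers (6 of 9) summed to 2.51 to 3.11 CPM in 16IC and 1.06 to 1.62 CPM in EIC, with Pecam1 at most at 0.249 CPM. Leukocyte markers (6 of 12) summed to 12.5 to 19.5 CPM in 16IC and 14.7 to 47.8 CPM in EIC, with Ptprc at most at 0.306 CPM. Neuronal and glial markers (8 of 10) summed to 379 to 409.9 CPM in 16IC and 63.0 to 73.2 CPM in EIC, almost all from Sox10, Map2 and Mbp. In the 4 tested genes of that list every 16IC line lay above every EIC line, which held for 17.2% of all tested genes. The neuronal tubulin gene Tubb3 was at 0 in 16IC and at most at 1.08 CPM in EIC. Whether Sox10, Map2 and Mbp mark neural cells in these lines was not tested. Epithelial markers (10 of 10) summed to 1839 to 12337 CPM in 16IC and 2613 to 3743 CPM in EIC, and basal markers (8 of 8) to 1.77 to 48.4 CPM in 16IC and 0.570 to 22 CPM in EIC. An unadjusted edgeR p under 0.05 was found for 8 of 10 tested epithelial and 4 of 13 mesenchymal markers. It was found for 4 of 4 neuronal and glial, 1 of 1 basal, 1 of 2 endothelial and 0 of 1 leukocyte markers. Among all tested genes the share was 22.7%. The 1 tested basal marker was higher in 16IC (log2 fold change 5.89), without passing the adjusted threshold. The median log2 fold change was 2.75 for epithelial markers (9 positive, 1 negative) and -1.59 for mesenchymal markers (4 positive, 9 negative). Among the tested genes of these 6 marker lists Mbp alone passed the test (log2 fold change 1.31, adjusted p = 0.0489), where 2.45% of all tested genes passed. The Mbp call was lost with limma-voom (adjusted p = 0.0563), the robust fit (0.0503), no filter (0.0744), 16IC 1 and 16IC 2 summed (0.184) and each left-out line but 16IC 3 (0.0846 to 0.192). What these marker differences contribute to the results below was not tested, and in bulk RNA fewer cells of a type cannot be told apart from less RNA per cell.

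Plxnb1, Sema4d and Sema6b were the members that passed the test, so the sequence before the start of such a gene is shown where RefSeq places a start within 100 bases of the start in the deposited table. Both windows hold the 250 bases before the RefSeq start on GRCm38.p6 and are read 5′ to 3′ on the strand of the gene, with GC boxes (GGGCGG or its reverse complement CCGCCC) in capitals. The Plxnb1 window is chr9:109095186-109095435 on the plus strand, and its last 47 bases lie past the start that the deposited table gives. The Sema6b window is chr17:56140344-56140593 on the minus strand and ends directly before the start in the table.
Plxnb1: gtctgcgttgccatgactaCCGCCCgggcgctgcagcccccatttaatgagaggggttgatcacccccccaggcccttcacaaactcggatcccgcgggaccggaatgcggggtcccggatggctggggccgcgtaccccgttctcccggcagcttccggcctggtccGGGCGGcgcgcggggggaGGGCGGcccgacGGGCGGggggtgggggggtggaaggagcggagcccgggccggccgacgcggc
Sema6b: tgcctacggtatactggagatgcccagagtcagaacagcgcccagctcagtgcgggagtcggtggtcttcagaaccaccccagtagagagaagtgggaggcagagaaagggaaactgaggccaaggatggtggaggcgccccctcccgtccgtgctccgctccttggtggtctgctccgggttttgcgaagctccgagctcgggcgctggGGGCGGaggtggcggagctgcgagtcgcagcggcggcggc
The Plxnb1 window held 4 GC boxes and 30 CpG pairs, with 75.2% G and C, and the Sema6b window held 1 GC box and 20 CpG pairs, with 66.0% G and C. All 3 RefSeq starts of Sema4d lie inside the gene as the table draws it, far from its start, and these windows are not shown. Promoter windows were found for 24 members, 35 in all, since some genes have several. A GC box stood in 26 of these 35 windows (74.3%), against 32.7% of all 32851 windows in the RefSeq table. The member windows were also richer in G and C, with a median of 64.0%, against 52.4% over all windows. Their median number of CpG pairs was 13, against 6 over all windows. What base composition contributes to the share with a GC box was not tested. The E-box CACCTG, or CAGGTG on the other strand, stood in 5 of 35 (14.3%), against 17.2% of all windows, and in neither window printed here. The palindromic AP-1 site TGANTCA stood in 3 of 35 (8.57%), against 6.75% of all windows. The 3 motifs do not contain one another. Such matches describe letters in a window only.

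Plxnb1 and Sema4d were higher in 16IC and Sema6b was lower by edgeR's quasi-likelihood test at an adjusted p under 0.05. That is 3 of 27 tested members, where the test called 2.45% of all tested genes. By direction the background was 1.25% higher and 1.20% lower. The median log2 fold change of the 27 was 0.37, against -0.0044 over all tested genes, and 17 were positive and 10 negative. The median size of the log2 fold change, without its sign, was 1.10 for the members and 0.43 for all tested genes. In 11 members the 16IC lines and the EIC lines did not overlap, 7 with 16IC above and 4 with 16IC below, where 31.4% of all tested genes had groups that did not overlap. An unadjusted p under 0.05 was found for 8 members, against 22.7% of all tested genes.

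Plxnb1 encodes plexin B1, the high-affinity receptor of Sema4D. It had 217, 163 and 267 CPM in 16IC 1 to 3, against 15.5, 34.1 and 11.2 CPM in EIC 1 to 3. Every 16IC line stood well above every EIC line, and 16IC 3, which differs from the other 16IC lines in much of its transcriptome, was the highest. The mean was 216 ± 52.1 CPM over 16IC lines, against 20.3 ± 12.2 CPM over EIC lines (SD, n = 3 each). Plxnb1 was 10.6-fold higher in 16IC (log2 fold change 3.41, SE 0.48, adjusted p = 0.0386), from 3605, 2659 and 4113 reads in 16IC 1 to 3, against 271, 567 and 180 reads in EIC 1 to 3. The gene (ENSMUSG00000053646) lies on chromosome 9, 109095389 to 109119917, plus strand. The antisense gene Gm7628 shares 257 of its exonic bases, or 2.68%, and had 61 reads over the 6 lines. Because the strand setting of the counting is not given, reads from that stretch cannot be assigned to one of them. The same holds for Plxna1 and Gm26811 (970 shared exonic bases, 10.7% of Plxna1, with 103 reads for Gm26811) and for Sema4c and D430040D24Rik (334 bases, 7.27% of Sema4c, with 38 reads for D430040D24Rik).

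Sema4d encodes a membrane semaphorin that can be shed and that binds plexin B1 and, more weakly, plexin B2. Its levels were 141, 144 and 74.7 CPM in 16IC 1 to 3, against 26.4, 17.7 and 17.7 CPM in EIC 1 to 3. The groups did not overlap, and 16IC 3 held about the middle ground between the other 16IC lines and EIC. The mean was 120.0 ± 39.2 CPM over 16IC lines, against 20.6 ± 5.01 CPM over EIC lines (SD, n = 3 each). Sema4d was 5.83-fold higher in 16IC (log2 fold change 2.54, SE 0.33, adjusted p = 0.0369). It lies on chromosome 13, 51685529 to 51793747, minus strand (ENSMUSG00000021451). Ligand and receptor of this pair were therefore both higher in 16IC.

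Sema6b encodes a membrane semaphorin known as a ligand of plexin A4. Its levels were 1.93, 3.0 and 3.31 CPM in 16IC 1 to 3, against 30.9, 14.1 and 32.3 CPM in EIC 1 to 3. All 16IC lines were low and alike, and EIC 2 was the lowest of the EIC lines. The mean was 2.74 ± 0.724 CPM over 16IC lines, against 25.8 ± 10.1 CPM over EIC lines (SD, n = 3 each). Sema6b was 9.36-fold lower in 16IC (log2 fold change -3.23, SE 0.44, adjusted p = 0.0370). The gene (ENSMUSG00000001227) lies on chromosome 17, 56123085 to 56140343, minus strand. Plxna4, the gene of that plexin, was nearly silent, with 0.0602 to 0.428 CPM in 16IC lines and 0 to 2.36 CPM in EIC lines, and had too few reads to be tested. Whether another plexin receives Sema6b in these lines was not tested.

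These 3 calls rested on most of the lines being present. Without 16IC 1, 16IC 2, EIC 1 or EIC 3 none of them passed (adjusted p = 0.139 to 0.164), while their log2 fold changes stayed between 3.11 and 3.57 for Plxnb1, between 2.39 and 2.76 for Sema4d and between -3.30 and -3.03 for Sema6b. In those 4 fits edgeR called 5, 0, 0 and 0 genes of the whole table, against 335 with all lines, and 7, 8, 8 and 8 members had an unadjusted p under 0.05, against 15.8, 15.8, 18.3 and 16.3% of all tested genes. As a share of all tested genes the adjusted calls are 0.0351% without 16IC 1 and 0.00% in the other 3 fits. Without EIC 2 Sema4d missed the threshold (adjusted p = 0.0590) and the log2 fold change of Plxnb1 was 4.01. In that fit 2 members passed, against 1.96% of all tested genes. Without 16IC 3 all 3 genes passed (adjusted p = 0.00608 to 0.0201). That fit leaves only 16IC 1 and 16IC 2 in the 16IC group, the pair with a Spearman correlation of 0.989. Limma-voom called the same 3 members (adjusted p = 0.0348 to 0.0482), with 2.10% of all tested genes. These 3 were also the members that edgeR called with DESeq2 size factors (2.43% of all tested genes), upper-quartile factors (2.50%), a minimum of 1 CPM in 3 libraries (2.85%), no filter (0.951%) and the robust fit (2.24%). With 16IC 1 and 16IC 2 summed into 1 library edgeR called none of the 3 (adjusted p = 0.158 for each) and 0.00% of all tested genes, while 8 members and 15.7% of all tested genes had an unadjusted p under 0.05.

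**Figure D1:**
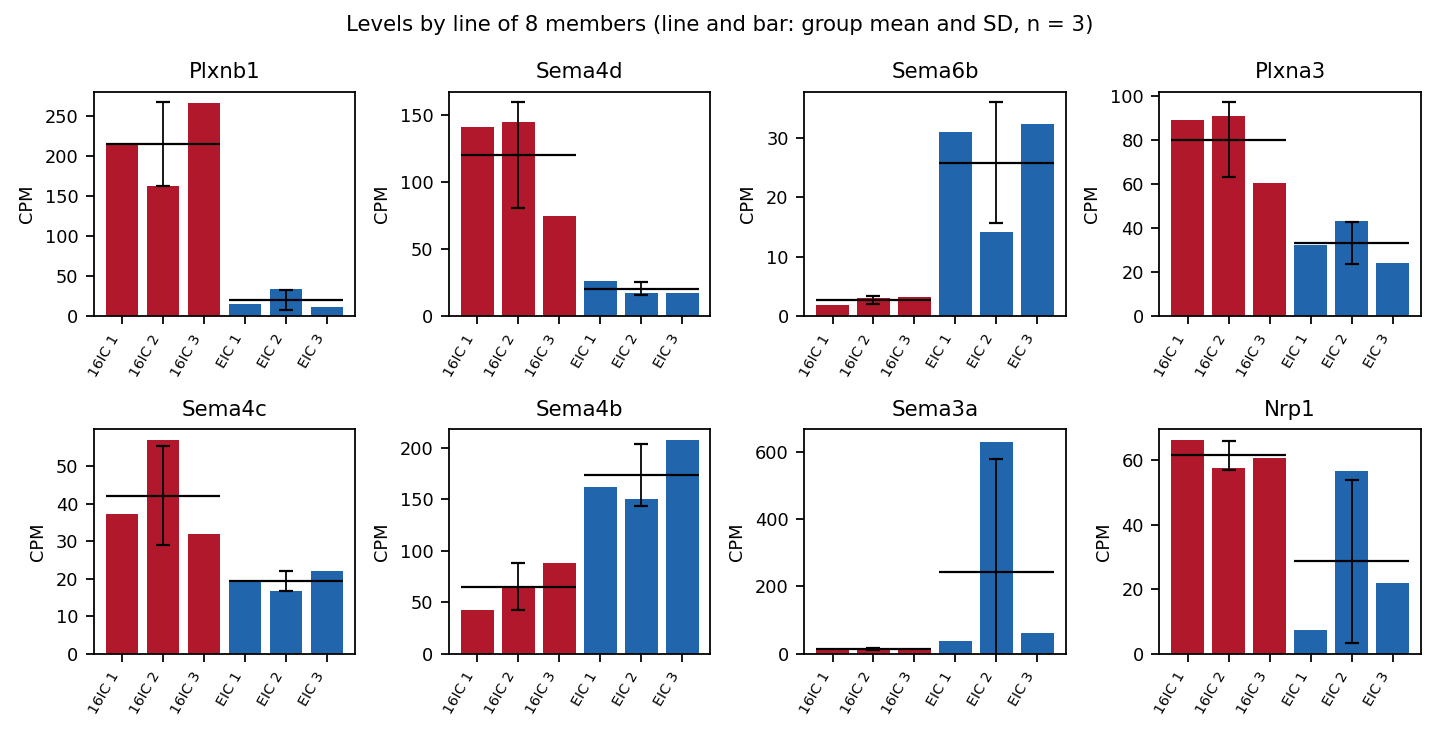
Levels in CPM of 8 members, 1 bar for each line, 16IC in red and EIC in blue; black lines give the group mean and error bars the SD (n = 3), cut at 0. Plxnb1 and Sema4d stand higher in all 16IC lines, Sema6b stands lower in them, and Sema3a reaches 629.9 CPM in EIC 2 alone.

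Among the receptors, Plxnb2 was the most abundant plexin transcript in every line. It encodes plexin B2, a receptor of Sema4C and Sema4D that is widely expressed in epithelia. Its level was 915, 1033 and 1049.5 CPM in 16IC 1 to 3, against 657, 826 and 838 CPM in EIC 1 to 3. The groups did not overlap but lay close (log2 fold change 0.37, SE 0.21, adjusted p = 0.352). Per kilobase of gene length, so that genes can be compared, Plxnb2 made up 66.9, 71.5 and 61.7% of the summed plexin level in 16IC 1 to 3, against 72.4, 72.4 and 73.4% in EIC 1 to 3. Plxnb1 made up 12.8, 9.07 and 12.6% in 16IC 1 to 3, against 1.37, 2.41 and 0.788% in EIC 1 to 3. The per-kilobase level of Plxnb2 was thus 5.24, 7.89 and 4.89 times that of Plxnb1 in 16IC 1 to 3, and 52.8, 30.1 and 93.0 times in EIC 1 to 3. Plxnb3, the remaining B plexin and a receptor of Sema5A, was low, at 0.904, 1.16 and 10.3 CPM in 16IC 1 to 3, against 1.65, 1.62 and 4.17 CPM in EIC 1 to 3, and its highest value was in 16IC 3.

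The 3 tested A plexins, which pair with neuropilins for class 3 semaphorins, did not pass the test, where 2.45% of all tested genes passed. For 1 of them, Plxna3, the unadjusted p was under 0.05, as for 22.7% of all tested genes. Plxna1, the leading A plexin per kilobase, had 194, 193 and 328 CPM in 16IC 1 to 3, against 185, 222 and 194 CPM in EIC 1 to 3, and only 16IC 3 stood out. Plxna3, which works with neuropilin 2, had 88.8, 90.7 and 60.3 CPM in 16IC 1 to 3, against 32.2, 43.1 and 24.4 CPM in EIC 1 to 3. Its groups did not overlap (log2 fold change 1.27, SE 0.28, adjusted p = 0.0740). It passed without 16IC 3 (adjusted p = 0.0290). Plxna2 had 6.32, 7.95 and 66.4 CPM in 16IC 1 to 3, against 45.8, 19.6 and 70.1 CPM in EIC 1 to 3, so that 16IC 3 lay within the EIC range and 9.30 times above the mean of 16IC 1 and 16IC 2. Its log2 fold change was -0.75 with all lines (adjusted p = 0.704) and -2.66 without 16IC 3, where it passed (adjusted p = 0.0449).

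Plxnd1, the receptor through which Sema3E acts without a neuropilin, had 20.4, 20.8 and 54.1 CPM in 16IC 1 to 3, against 24.4, 41.9 and 63.7 CPM in EIC 1 to 3, with overlapping groups (adjusted p = 0.661). Plxnc1, the plexin that binds Sema7A, had 0 reads in 5 lines and 5 reads in EIC 2, and was not tested. With 0 reads a level up to 0.171 to 0.195 CPM is possible in these lines, taking 3 reads as the limit of counting error.

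The neuropilins differed in which lines carried them. Nrp1, the co-receptor of Sema3A, had 66.1, 57.4 and 60.7 CPM in 16IC 1 to 3, against 7.41, 56.6 and 21.9 CPM in EIC 1 to 3. The 16IC lines were close to each other and EIC 2 reached nearly their level (log2 fold change 1.10, SE 0.67, adjusted p = 0.383). Without EIC 2 the log2 fold change of Nrp1 was 2.06 (adjusted p = 0.106). Nrp2, the co-receptor of Sema3F, had 127, 155 and 439 CPM in 16IC 1 to 3, against 388, 329 and 461 CPM in EIC 1 to 3. Here 16IC 3 was at the level of EIC and 3.11 times above the mean of the other 16IC lines. Nrp2 had a log2 fold change of -0.71 (SE 0.50, adjusted p = 0.453) with all lines and of -1.48 without 16IC 3, where it passed (adjusted p = 0.0177). Per kilobase, Nrp2 exceeded Nrp1 in every line, by 1.59, 2.24 and 5.98 times in 16IC 1 to 3 and by 43.2, 4.81 and 17.4 times in EIC 1 to 3, so the ratio was lowest in 16IC 1 and 16IC 2 and overlapped between the groups.

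**Figure D2:**
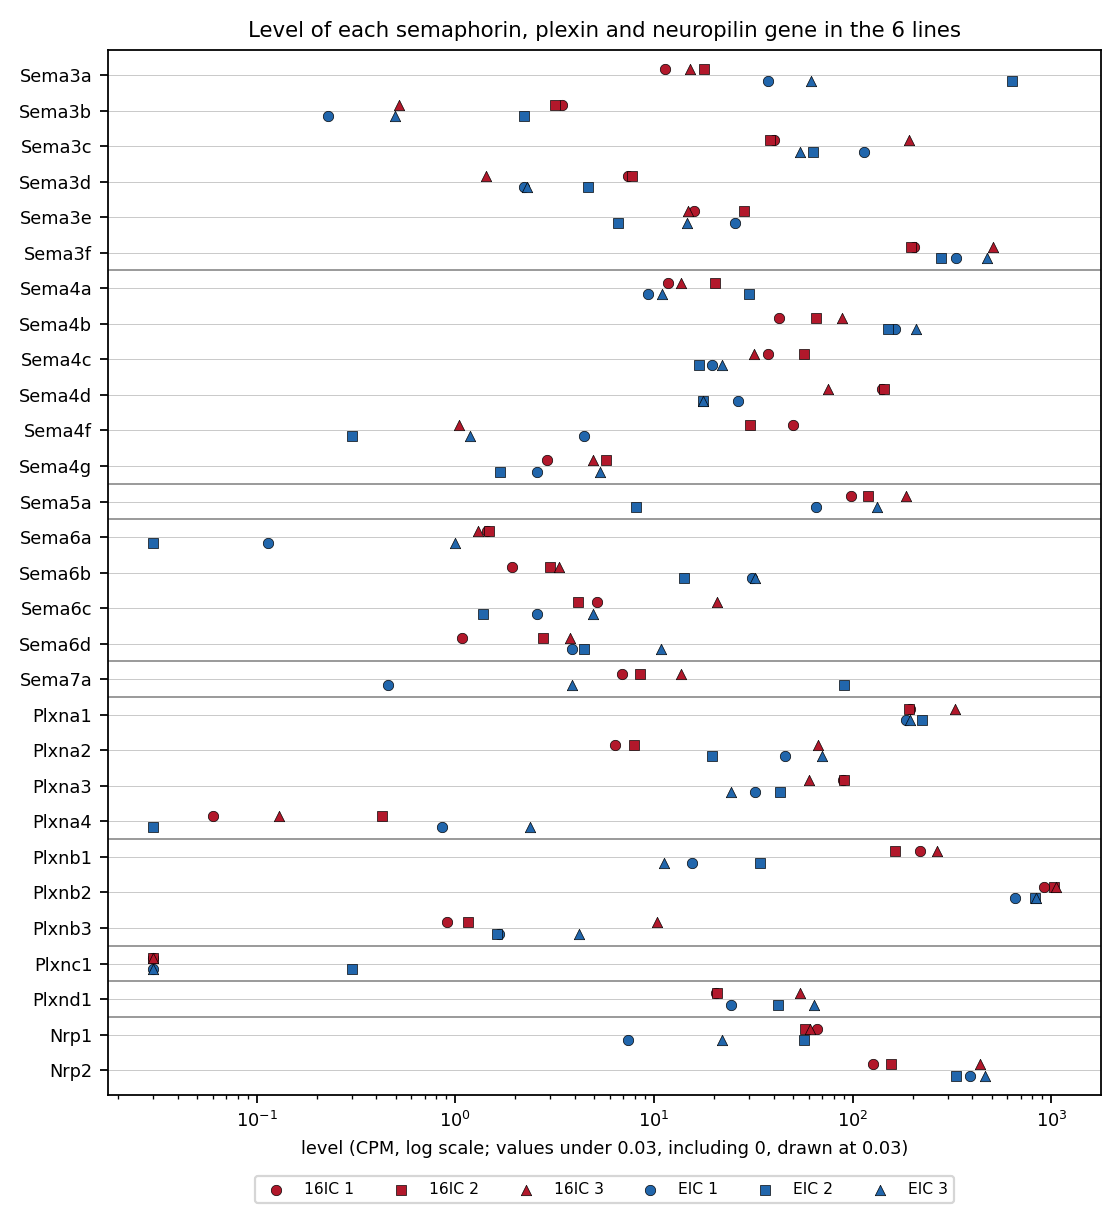
Level of each of the 29 members in CPM on a log scale, with 16IC lines in red and EIC lines in blue; grey lines part the classes, and values under 0.03 CPM are drawn at 0.03. Levels run from 0 for Plxnc1 to 1049.5 CPM for Plxnb2, and 16IC 3 and EIC 2 often lie away from the other lines of their group.

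Of the 6 class 3 semaphorins none passed the edgeR test, where 2.45% of all tested genes passed. An unadjusted p under 0.05 was found for 1, Sema3a, against 22.7% of all tested genes. Limma-voom called none of the 6 and DESeq2 called Sema3a, where they called 2.10% and 15.3% of all tested genes. Sema3f, a secreted ligand of neuropilin 2, was the leading semaphorin per kilobase in all 6 lines. It had 203, 197 and 507 CPM in 16IC 1 to 3, against 330.2, 278 and 472 CPM in EIC 1 to 3. The highest value was in 16IC 3 and the lowest values were in the other 16IC lines (log2 fold change -0.25, SE 0.44, adjusted p = 0.777). Sema3f took 37.6, 33.4 and 53.5% of the summed per-kilobase semaphorin level in 16IC 1 to 3, against 46.4, 29.7 and 53.3% in EIC 1 to 3.

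Sema3a, the secreted ligand of neuropilin 1 that collapses growth cones, had 11.4, 17.7 and 15.1 CPM in 16IC 1 to 3, against 37.4, 629.9 and 61.4 CPM in EIC 1 to 3. All EIC lines lay above all 16IC lines, and EIC 2 was 12.8 times above the mean of the other EIC lines. The log2 fold change was -4.04 (SE 1.16, adjusted p = 0.116) with all lines and -1.75 without EIC 2 (adjusted p = 0.0680). DESeq2 called Sema3a lower in 16IC (adjusted p = 0.000474). In EIC 2 it held 25.2% of the summed per-kilobase semaphorin level, against 1.97 and 2.60% in EIC 1 and EIC 3.

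Sema3c, which binds both neuropilins, had 39.9, 38.4 and 191 CPM in 16IC 1 to 3, against 114, 62.7 and 54.3 CPM in EIC 1 to 3, and its log2 fold change turned from 0.23 to -0.97 when 16IC 3 was left out. Sema3e, the ligand of plexin D1, had 14.7 to 28.3 CPM in 16IC and 6.56 to 25.5 CPM in EIC. Sema3b and Sema3d were low, at most at 3.43 and 7.71 CPM in 16IC and at 2.23 and 4.63 CPM in EIC, and both were lowest among 16IC lines in 16IC 3. Sema3d, Sema3a, Sema3e and Sema3c follow each other on chromosome 5 between 12383385 and 17730268. Among these neighbours EIC 2 was the highest of the 6 lines for Sema3a alone and the lowest of the 6 for Sema3e. Sema3b and Sema3f lie near each other on chromosome 9, between 107597674 and 107710475, and differed in level per kilobase by far, with group means of 0.498 and 58.2 CPM per kilobase in 16IC and of 0.206 and 69.3 in EIC.

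Class 4 held 1 called gene, Sema4d, among 6 tested, where 2.45% of all tested genes were called. An unadjusted p under 0.05 was found for 4 of its 6 members, against 22.7% of all tested genes. Sema4b, a membrane semaphorin, was the leading class 4 member per kilobase in EIC. It had 42.5, 65.0 and 88.2 CPM in 16IC 1 to 3, against 162, 150.0 and 207 CPM in EIC 1 to 3. The groups did not overlap (log2 fold change -1.41, SE 0.30, adjusted p = 0.0679), and the gene passed without 16IC 3 (adjusted p = 0.0207). Sema4c, the ligand of plexin B2, had 37.4, 57.0 and 32.0 CPM in 16IC 1 to 3, against 19.6, 16.8 and 22.1 CPM in EIC 1 to 3. These groups did not overlap either (log2 fold change 1.11, SE 0.28, adjusted p = 0.0891), and Sema4c also passed without 16IC 3 (adjusted p = 0.0345). Per kilobase the level of Sema4b was 0.411, 0.613 and 1.60 times that of Sema4d in 16IC 1 to 3, against 8.37, 11.5 and 16.0 times in EIC 1 to 3. The larger of the pair was therefore Sema4d in 16IC 1 and 16IC 2 and Sema4b in 16IC 3 and all EIC lines.

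Sema4f, a membrane semaphorin studied mainly in neurons, was split within 16IC. It had 49.9, 30.5 and 1.04 CPM in 16IC 1 to 3, against 4.45, 0.301 and 1.18 CPM in EIC 1 to 3, so 16IC 3 was at the level of EIC. Its log2 fold change had the largest positive value among the tested members, 3.77, with an SE of 1.48 (adjusted p = 0.201), and it passed without 16IC 3 (adjusted p = 0.0494). Sema4a, known from the costimulation of T cells, had 11.7 to 20.3 CPM in 16IC and 9.35 to 30.0 CPM in EIC, and Sema4g had 2.89 to 5.75 CPM in 16IC and 1.68 to 5.35 CPM in EIC, with overlapping groups.

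Sema5a, which carries thrombospondin repeats and is a ligand of plexin B3, had 97.6, 119 and 184 CPM in 16IC 1 to 3, against 65.0, 8.06 and 133 CPM in EIC 1 to 3. EIC 2 was far below all other lines (log2 fold change 0.96, SE 0.87, adjusted p = 0.565). Sema7a, the lipid-anchored semaphorin that binds plexin C1 and beta1 integrins, had 6.93, 8.44 and 13.7 CPM in 16IC 1 to 3, against 0.456, 90.7 and 3.85 CPM in EIC 1 to 3. EIC 2 was 42.1 times above the mean of the other EIC lines, and the log2 fold change turned from -1.71 with all lines to 2.16 without EIC 2 (adjusted p = 0.574 and 0.257). In class 6, beside Sema6b, Sema6c had 5.18, 4.16 and 20.8 CPM in 16IC 1 to 3, against 2.57, 1.38 and 4.91 CPM in EIC 1 to 3 (adjusted p = 0.256), and its log2 fold change was 1.76 with all lines and 0.66 without 16IC 3. Sema6d, a ligand of plexin A1, had 1.08, 2.75 and 3.76 CPM in 16IC 1 to 3, against 3.88, 4.45 and 10.9 CPM in EIC 1 to 3. Sema6a, a ligand of plexins A2 and A4, had 1.30 to 1.47 CPM in 16IC and 0 to 0.995 CPM in EIC. The groups of both did not overlap, without passing the test (adjusted p = 0.275 and 0.378).

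**Figure D3:**
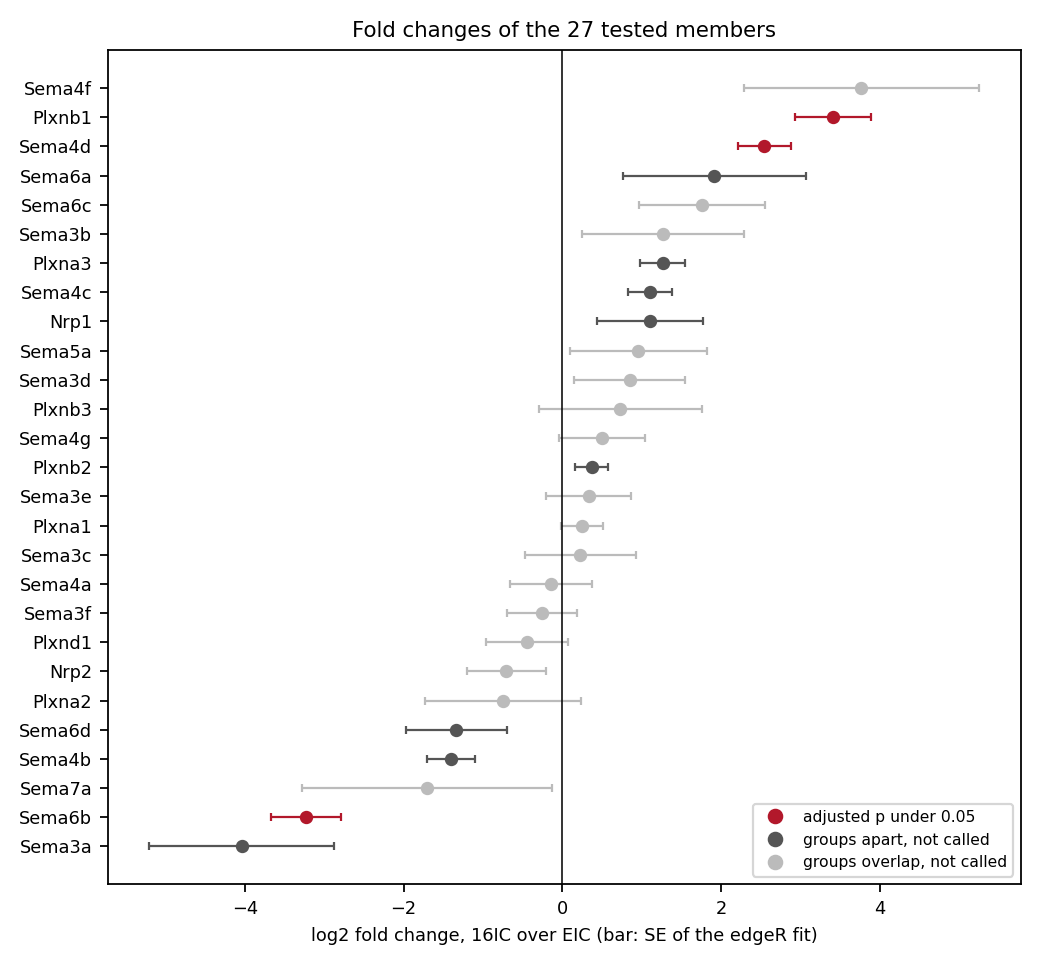
Log2 fold change of 16IC over EIC for each of the 27 tested members, with the SE of the fit as a bar. Red points passed the adjusted p threshold of 0.05, dark grey points had groups that did not overlap and light grey points had groups that overlapped; the values run from 3.77 for Sema4f to -4.04 for Sema3a.

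Over whole classes, the make-up of the semaphorins varied more widely across the 6 lines than that of the plexins. Class 3 members made up 47.0, 43.4 and 69.9% of the summed per-kilobase semaphorin level in 16IC 1 to 3, against 62.2, 60.8 and 61.5% in EIC 1 to 3. Class 4 members made up 44.4, 47.1 and 19.8% in 16IC 1 to 3, against 28.9, 21.4 and 27.7% in EIC 1 to 3. With these shares 16IC 3 lay on the far side of EIC from the other 16IC lines. B plexins made up 79.8, 80.7 and 75.0% of the summed plexin level in 16IC 1 to 3, against 74.0, 75.0 and 74.7% in EIC 1 to 3. The summed plexin level was 177, 187 and 220.5 CPM per kilobase in 16IC 1 to 3, against 118, 148 and 148 in EIC 1 to 3, groups that did not overlap. The summed semaphorin level overlapped, with 104, 113 and 182 CPM per kilobase in 16IC 1 to 3, against 137, 180.1 and 170.3 in EIC 1 to 3.

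**Figure D4:**
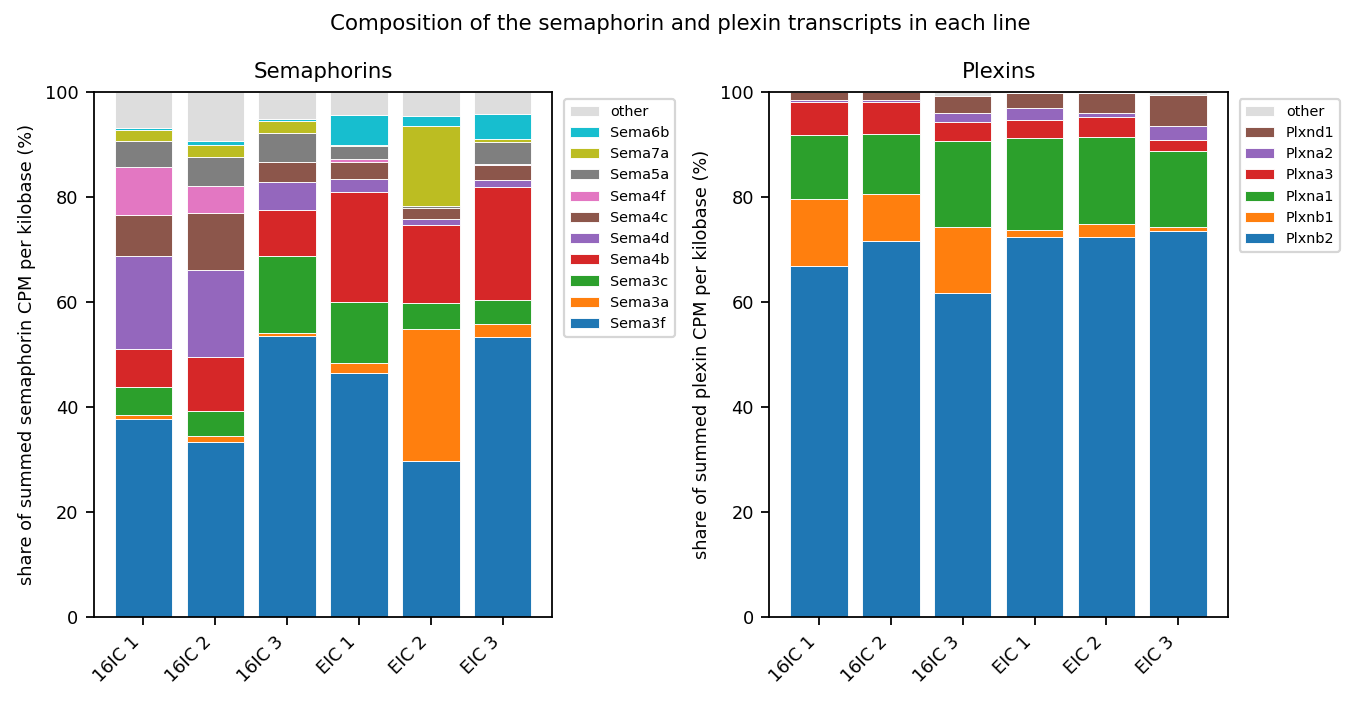
Share of each named gene in the summed CPM per kilobase of the semaphorins (left) and the plexins (right), in percent, for each line. Sema4d is wide in 16IC 1 and 16IC 2 at 17.6 and 16.6%, Sema3a and Sema7a are wide in EIC 2 at 25.2 and 15.3%, and Plxnb1 is wide in the 16IC lines.

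The line 16IC 3 lay within the EIC range for 9 of 27 tested members, or 33.3%, against 30.4% of all tested genes, a share near the background. For 16IC 1 and 16IC 2 the counts were 6 and 5 members (22.2 and 18.5%), against 36.6 and 37.1% of all tested genes. In 16IC 3 Plxna2, Plxnb3, Sema3c, Sema6c and Nrp2 were 3.11 to 9.98 times above the mean of 16IC 1 and 16IC 2, and Sema4f, Sema3b and Sema3d were at 0.0258 to 0.190 times it. Levels of the mesenchymal regulators Zeb1 and Zeb2 in 16IC 3 were 45.7 and 51.8 CPM, against 1.57 and 0.0602 CPM in 16IC 1, 2.33 and 1.84 CPM in 16IC 2 and 38.4 to 92.3 CPM in EIC lines, and their part in the member values was not tested. Leaving out 16IC 3 also moved the log2 fold change of Plxnd1 to -1.07, against -0.45 with all lines, and that of Sema3f to -0.85, against -0.25. Leaving out EIC 2 moved Sema3b to 2.69, against 1.27, and leaving out EIC 3 moved Sema5a to 1.86, against 0.96, Sema6a to 4.42, against 1.92, and Sema6d to -0.73, against -1.34. Sema4f was at 5.17 without EIC 1 and at 3.0 without 16IC 1, against 3.77. These members did not pass in the fits just given. With 16IC 3 left out edgeR called 9 members, 5 higher (Plxna3, Plxnb1, Sema4c, Sema4d and Sema4f) and 4 lower (Nrp2, Plxna2, Sema4b and Sema6b), or 32.1% of 28 tested, where it called 13.4% of all genes tested in that fit. With both 16IC 3 and EIC 2 left out edgeR called 14 of 28, 8 higher and 6 lower, against 29.1% of all genes tested, with 2 lines a group. In both fits the 16IC group was 16IC 1 and 16IC 2 alone, with a Spearman correlation of 0.989. Its spread is therefore that of 2 nearly alike libraries. This limit holds for every pass without 16IC 3 given above.

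**Figure D5:**
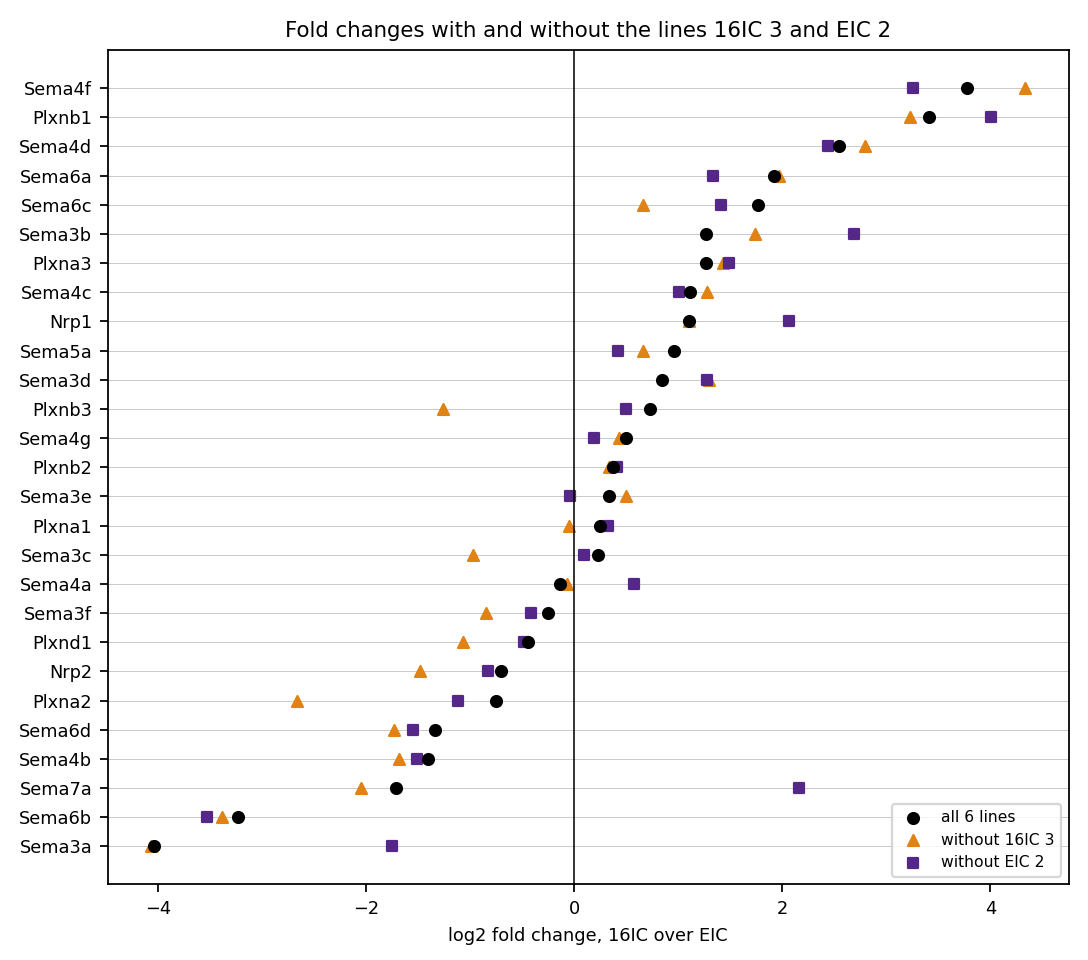
Log2 fold change of 16IC over EIC for the 27 tested members with all 6 lines (black), without 16IC 3 (orange) and without EIC 2 (purple). Plxnb1, Sema4d and Sema6b keep their direction in the 3 fits, while Plxnb3, Sema3c and Plxna1 change sign without 16IC 3 and Sema7a, Sema4a and Sema3e change sign without EIC 2.

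Of the 29 members 8 have, in the authors' deposited table, an adjusted p under 0.05, 5 higher and 3 lower in 16IC. There 8.63% of all 23449 genes do, a background that includes genes with too few reads to be tested here. Enough reads were found for 13698 of the 23449 genes but for 27 of the 29 members, so that background is not a like set of genes. The higher genes in the authors' deposited table are Plxna3, Plxnb1, Sema4c, Sema4d and Sema4f and the lower genes are Sema3a, Sema4b and Sema6b. A DESeq2 run on the filtered counts called the same 8 genes, of 27 members entered, and 15.3% of all genes entered. Sema7a, counted among the 27, got no p-value in that run. The run used the same 6 libraries as the authors' values, so it is not independent support, and edgeR called 3 members.

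Partners of the receptors were looked at from lists of pathway genes, each leaving out chromosome 14. Of 12 tested receptor partners and other ligands of plexins and neuropilins, edgeR called 1, which was higher, and 4 had an unadjusted p under 0.05, where 2.45% of all tested genes were called and 22.7% had such a p; the median log2 fold change was 0.70. The called gene was Pgf, a VEGF-family ligand of neuropilin 1, with 27.2, 43.2 and 20.7 CPM in 16IC 1 to 3, against 1.14, 0.361 and 2.36 CPM in EIC 1 to 3 (log2 fold change 4.55, SE 0.73, adjusted p = 0.0430). Met, the kinase that associates with B plexins, had 233, 225 and 311 CPM in 16IC 1 to 3, against 186, 101 and 174 CPM in EIC 1 to 3, without overlap and without passing the test (adjusted p = 0.195). L1cam, a neural adhesion gene whose product takes part in Sema3A reception, had 58.1, 70.0 and 5.32 CPM in 16IC 1 to 3, against 0.541 to 1.37 CPM in EIC lines (adjusted p = 0.0574).

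Of 27 tested intracellular effectors and regulators edgeR called 1, which was lower, and 6 had an unadjusted p under 0.05, near the 2.45% and 22.7% of all tested genes; the median was 0.073. The called gene was Limk1, the kinase that inactivates the actin-severing protein cofilin, with 10.9, 10.1 and 6.81 CPM in 16IC 1 to 3, against 33.3, 39.0 and 57.6 CPM in EIC 1 to 3 (log2 fold change -2.22, SE 0.32, adjusted p = 0.0386). Its relative Limk2 had 101 to 133 CPM in 16IC and 66.2 to 74.3 CPM in EIC, without passing (log2 fold change 0.81, adjusted p = 0.0675). Gipc1, an adaptor that binds neuropilin 1, had 62.7 to 133 CPM in 16IC and 46.9 to 58.0 CPM in EIC (adjusted p = 0.122), and Dpysl3, of the family that relays Sema3A signals, had 0.361 to 0.973 CPM in 16IC and 0.241 to 25.2 CPM in EIC (adjusted p = 0.145).

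Of 5 tested proteases that process semaphorins edgeR called 1, which was also the one with an unadjusted p under 0.05 (2.45% and 22.7% of all tested genes); the median was 0.13. Pcsk6, a proprotein convertase, had 154, 164 and 66.4 CPM in 16IC 1 to 3, against 0.171, 1.5 and 2.18 CPM in EIC 1 to 3 (log2 fold change 6.64, SE 0.92, adjusted p = 0.0370). The EIC 1 value is at the counting limit of 3 reads, so the size of this fold change is uncertain. Furin, the convertase best known for cutting class 3 semaphorins, had 411 to 510.0 CPM in 16IC and 304 to 739.5 CPM in EIC, with overlapping groups. Among 23 tested genes of the ephrin, netrin and slit families edgeR called 1, and 7 had an unadjusted p under 0.05 (2.45% and 22.7% of all tested genes); the median was 0.47. This was Ephb3, an ephrin receptor gene, with 102, 119 and 80.1 CPM in 16IC 1 to 3, against 19.2, 18.9 and 18.8 CPM in EIC 1 to 3 (log2 fold change 2.4, SE 0.20, adjusted p = 0.0211). The calls of Pgf, Limk1, Pcsk6 and Ephb3 depended on single lines like those of the members, with adjusted p up to 0.171, 0.164, 0.161 and 0.151 when 1 line was left out.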

How the data were processed

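RNA of 6 cell lines, 3 labelled 16IC and 3 labelled EIC, was analysed from the deposited gene table. Per the submitters' processing notes reads passed through software including STAR, HTSeq, Trimmomatic, limma and edgeR, with GRCm38 and mm10 as builds; the sources used here give no version, setting or strandedness. The authors deposited raw read counts per gene, from which all tests were made. They also deposited a normalised signal (the count over a size factor per library) with group means, FPKM values, and a log2 fold change with a p-value and adjusted p-value. The signal and FPKM columns were not tested. Start and end of all 29 members equal those of GENCODE M21 on GRCm38.

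Counts were filtered with filterByExpr (minimum count 10), scaled by TMM and tested with edgeR 4.0.16 (R 4.3.3) by glmQLFTest, 16IC over EIC, with p-values adjusted by the Benjamini-Hochberg method over 13698 genes. SE is the size of the log2 fold change over the square root of the F statistic. Levels per kilobase use the table's gene length. Alternatives were other size factors, other filters, lines left out, 16IC 1 and 16IC 2 summed, the robust fit, limma-voom (limma 3.58.1), DESeq2 1.42.0 and other thresholds. The tests were also run on simulated counts with known changes, drawn with the same spread for every gene and independent libraries. That setting does not copy the unequal spread among these lines, so it cannot show how the tests behave on them. Counting limits cover counting error only. Members, gene lists, left-out lines and the choice of tests were made with earlier results of these data known. All members are named; values in every line are given for called members, for members whose groups do not overlap at a higher mean of at least 5 CPM, for the leading member of each class per kilobase, and for others chosen after their values were seen. From each pathway list the called genes were open to naming, with up to 4 genes of smallest p, while Furin and the cell-type markers named were chosen as background.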

Additional observations from a re-analysis of the deposited data

How the results depend on the processing

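All 27 tested members kept the sign of their log2 fold change with DESeq2, its size factors, upper-quartile factors, both other filters, the robust fit and 16IC 1 and 16IC 2 summed. Signs turned elsewhere for 6 members. Without 16IC 3 the values were -0.97 for Sema3c, -0.054 for Plxna1 and -1.26 for Plxnb3. Without EIC 2 they were -0.039 for Sema3e, 0.57 for Sema4a and 2.16 for Sema7a. Without 16IC 1 Sema4a was at 0.019, and without 16IC 2 Sema3e was at -0.030. Over the fits without 1 line the values ran from -0.97 to 0.62 for Sema3c, -0.039 to 0.87 for Sema3e, -0.43 to 0.57 for Sema4a, -2.27 to 2.16 for Sema7a, -0.054 to 0.38 for Plxna1 and -1.26 to 1.31 for Plxnb3. With 16IC 3 and EIC 2 both left out Sema3c was at -1.10, Sema4a at 0.65, Sema7a at 1.84 and Plxnb3 at -1.49. Limma-voom gave -0.14 for Sema3c, 0.028 for Sema4a, 0.77 for Sema7a and -0.025 for Plxnb3.

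With all lines edgeR called 335 genes, 2 members higher, 1 lower and 4 genes of the pathway lists. Leaving out 1 line in turn moved these counts over 0 to 1913 genes, 0 to 5 members higher, 0 to 4 lower and 0 to 16 list genes. With 16IC 3 and EIC 2 left out they were 4092, 8, 6 and 35. DESeq2 gave 2098, 5, 3 and 15. An adjusted p under 0.1 gave 1184, 4, 2 and 10, and one under 0.01 gave 0 of each by edgeR, where 3110 genes had an unadjusted p under 0.05. With 16IC 1 and 16IC 2 summed edgeR called 0 of each, with 8 members at an unadjusted p under 0.05. No filter on low counts gave 223 genes, with the same 3 members. The causes were not tested. No paired analysis was possible because the labels give no replicate numbers, and the numbers used here only name lines in accession order. With 3 lines a group, the SE of a member reached 1.58, for Sema7a.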
